A study of Homo sapiens with 12 samples.

Results

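The genes of the small ribosomal subunit proteins were examined in TIGK cells, which are gingival keratinocytes of human origin made immortal by hTERT, the catalytic subunit of telomerase, with and without added L-arginine (Arg). A gene was taken as a member when its row in the count table was protein coding and its name was RPSA or RPS followed by a number and at most 1 letter A, X, or L. This rule uses names alone and found 32 members among the 58735 genes of the table, 29789 of them with a count above 0 in some library. The subunit also holds a pair of proteins with other names, FAU (which encodes RPS30 fused to a ubiquitin-like protein) and RACK1, and are given separately. All cells were kept at 48 mM glucose in a base medium that held no Arg, and received either 500 μM Arg or no added Arg for 24 or 48 h. RNA sequencing was done on 3 libraries (replicates A, B, and C) in each of the 4 groups, 12 libraries in all. All libraries come from a single immortalized line, and no label says that the replicates were separate cultures, so p-values measure only the spread between these libraries. The question was how the members differed between Arg-treated and untreated cells at each time and between the times.

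The small subunit of the ribosome holds the messenger RNA and reads its codons, while the large subunit joins the amino acids. It is built from a ribosomal RNA and the proteins described here, which are assembled in the nucleolus with the help of many assembly factors. Most mRNAs of ribosomal proteins begin at a C that is followed by an uninterrupted run of pyrimidines, the 5′ terminal oligopyrimidine (TOP) motif, through which mTORC1 and the protein LARP1 control their translation and stability. Arg is one of the amino acids that mTORC1 senses.

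The transcription start is shown for members on which the results below turn, because the TOP motif sits there. RefSeq starts in GRCh38.p14 were given for 25 of the 32 members. Each sequence runs 5′ to 3′ on the strand of the gene and holds 10 bases before the start and 20 bases from it. Capitals mark a TOP tract, here a C at the start itself and at least 4 pyrimidines (C or T) directly after it. The genes are RPS21 and RPS27, which fell with Arg at 48 h, RPS23, which was higher there, 3 abundant members with a tract (RPS3, RPSA, and RPS6), and 3 members whose RefSeq start has none (RPS29, RPS26, and RPS27L).
RPS21 (chr20:62387093-62387122, plus strand): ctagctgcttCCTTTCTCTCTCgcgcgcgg
RPS27 (chr1:153990752-153990781, plus strand): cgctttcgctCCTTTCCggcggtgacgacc
RPS23 (chr5:82278335-82278364, minus strand): cggtgcttctCTCTTTCgctcaggcccgtg
RPS3 (chr11:75399508-75399537, plus strand): cgagccacttCCTTTCCTTTCagcggagcg
RPSA (chr3:39406710-39406739, plus strand): tgccgcctgtCTTTTCCgtgctacctgcag
RPS6 (chr9:19380217-19380246, minus strand): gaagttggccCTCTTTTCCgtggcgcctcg
RPS29 (chr14:49598691-49598720, minus strand): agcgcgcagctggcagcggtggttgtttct
RPS26 (chr12:56041908-56041937, plus strand): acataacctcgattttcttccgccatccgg
RPS27L (chr15:63157458-63157487, minus strand): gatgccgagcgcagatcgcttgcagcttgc
In all, 18 of the 25 members (72%) had a tract at 1 or more of their RefSeq starts, against 1404 of the 27305 genes of the RefSeq table (5.14%) and 29 of 42 large subunit genes. A tract found in this way is a match of letters, and the start used in TIGK cells was not measured. Members with no entry included RPS2, RPS15A, and RPS20.

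The libraries held 16542243 to 19040964 counts. The chi-square per degree of freedom between replicates, which is near 1 under sampling noise alone, lay between 3.66 and 23.9, so each library was counted once. At 48 h, control replicate B differed most from its group, with 20.9 against A and 23.9 against C. At 24 h, control replicate B (12.3 and 12.5, against 6.54 between A and C) and Arg replicate A (12.4 and 10.9, against 5.41 between B and C) also stood apart from their groups. All 8 keratinocyte markers were present, with KRT5 at 24118 to 31695 CPM (counts scaled to a common library size) after TMM normalization. Markers of fibroblasts, melanocytes, leukocytes, and endothelial cells were at or near 0, with 2 counts of COL1A2 and 0 of TYR in all libraries together, except for DCN (15.3 to 76.1 CPM) and COL1A1 (10.8 to 27.0 CPM).

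The members took 2.94% ± 0.151 of all counts in the 24 h control, 2.57% ± 0.151 in the 24 h Arg group, 2.77% ± 0.0919 in the 48 h control, and 2.39% ± 0.133 in the 48 h Arg group (SD, n = 3 libraries each). Levels differed widely between members. Per kilobase of the canonical transcript, the mean over the 12 libraries was highest for RPS2 (3211 CPM per kilobase), a body protein at the mRNA entry, followed by RPS18 (2612) of the head. It was lowest for RPS10 (3.14) and RPS27L (4.06) and also low for RPS15A (65.2), and its median over members was 1130. These values depend on the isoform taken as canonical. That isoform had 6110 bases for the 84 codons of RPS27L and 2203 bases for the 130 codons of RPS15A. The 10 members with the most counts held 55.8% of the members' counts. RPS10 had 399 counts over all libraries together, and its values carry correspondingly large errors. Another gene overlaps RPS10 on the same strand, as given below, so its low level is uncertain. Each of the 32 members passed edgeR's filter on low counts in every comparison.

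After 24 h with Arg, most small subunit genes were slightly lower than in the untreated control. The log2 fold change was below 0 in 31 of the 32 members, with a median of −0.22, while over all 14279 genes tested the median was 0.0030 and 49.5% were below 0. At an unadjusted p under 0.05 in edgeR's quasi-likelihood test, 21 members were lower and 0 were higher, where 11.9% of all tested genes were lower and 10.8% were higher. After Benjamini–Hochberg adjustment over all genes, RPS15A and RPS27 fell (3.84% of all genes were lower). The number of members that rose was 0, with edgeR and with DESeq2, where 398 and 494 of the 14279 tested genes rose. In 16 members, each Arg library lay below each control library, as in 13.4% of the tested genes. Since RNA was taken from whole cultures, fewer cells that express a gene and less RNA per cell cannot be told apart.
RPS15A (chromosome 16, 18781295 to 18790383), a protein that binds the central domain of the small subunit rRNA, had 203.3, 172.0, and 219.0 CPM in control replicates A, B, and C. In the Arg libraries it had 181.8 CPM in replicate A, 95.2 in B, and 106.6 in C. Arg replicates B and C lay far below the controls, whereas Arg replicate A lay among them. Its Arg over control value was −0.63 on the log2 scale (standard error, SE, 0.167, adjusted p = 0.0297 in edgeR's test), and with DESeq2 it was −0.63 with an adjusted p of 0.231.
RPS27 (chromosome 1, 153990755 to 153992155), a zinc finger protein of the body, had 658.6, 605.0, and 701.0 CPM in the controls and 595.7, 455.5, and 491.8 CPM in the Arg libraries. All Arg libraries were below all controls, with replicate A just under the lowest control. This gave −0.35 on the log2 scale (SE 0.0942, adjusted p = 0.0329 in edgeR's test).
RPS29 (chromosome 14, 49570984 to 49599164), a zinc-binding head protein mutated in some families with Diamond–Blackfan anemia, and RPS21 (chromosome 20, 62387116 to 62388520), a small body protein next to RPSA, showed the pattern of RPS15A. For RPS29, the controls had 227.0, 177.2, and 287.6 CPM and the Arg libraries 229.9, 126.0, and 135.1 CPM. For RPS21, the controls had 544.5, 489.4, and 589.4 CPM and the Arg libraries 522.5, 341.3, and 361.5 CPM. In both genes, Arg replicate A lay within the range of the controls while B and C lay below it, and the log2 fold changes of −0.50 (SE 0.181, adjusted p = 0.110) and −0.41 (SE 0.123, adjusted p = 0.0564) did not pass in edgeR's test.

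**Figure D1:**
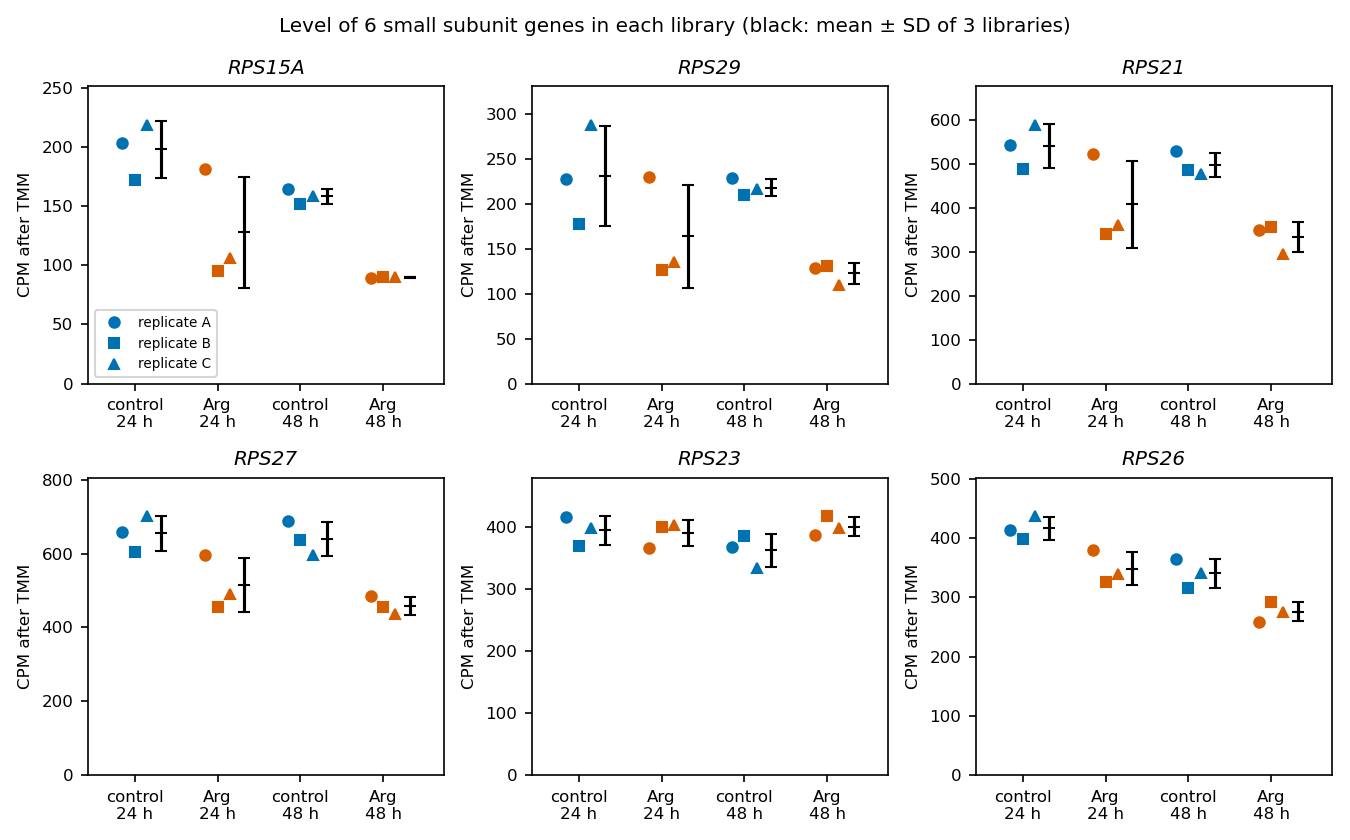
CPM after TMM normalization (y axis, linear, from 0) of RPS15A, RPS29, RPS21, RPS27, RPS23, and RPS26 in each library, by group (x axis). Blue points are control and orange points Arg libraries, the shapes mark replicates A, B, and C, and the black bars are the mean ± SD of 3 libraries. At 48 h the Arg libraries of the first 4 genes lie together below the controls, at 24 h Arg replicate A lies higher than Arg replicates B and C, and RPS26 falls with time in both treatments.

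Below these in the order of p-values, RPS7 (which can bind MDM2), RPS26 (at the mRNA exit), RPS18 and RPS20 (both in the head), and RPS16 (near the P site) had log2 fold changes between −0.29 and −0.25 at 24 h, with adjusted p-values between 0.0566 and 0.0650 in edgeR's test and between 0.0294 and 0.0359 with DESeq2. RPS6, the substrate of S6 kinase, had 1100, 1040, and 1133 CPM in the controls and 963.6, 851.1, and 956.8 CPM with Arg, so the groups did not overlap (log2 fold change −0.24, adjusted p = 0.0673 in edgeR's test and 0.0322 with DESeq2). RPS3, at the mRNA entry, and RPSA, also known as a laminin receptor, did not overlap between the groups either, with log2 fold changes of −0.22 and −0.19 (adjusted p = 0.0987 and 0.171 in edgeR's test). The members at an unadjusted p of 0.05 or above included RPS2, RPS4X, RPS9, RPS10, RPS12, RPS19, RPS23, RPS27A, and RPS27L. Of these, RPS9 (−0.03) and RPS23 (−0.02) were closest to 0, and RPS10 was the member above 0 (0.13, SE 0.346).
The values in each library show how small these shifts were. RPS7 had 1089, 981.5, and 1178 CPM in the 24 h controls and 973.0, 789.6, and 891.0 CPM with Arg. RPS18 had 1689, 1516, and 1832 CPM in the controls and 1489, 1300, and 1398 CPM with Arg. In both genes, and in RPS26 and RPS16, whose values follow with the comparison of times, the highest Arg library was Arg replicate A and lay just under the lowest control. RPS20 had 1188, 1005, and 1146 CPM in the controls and 1006, 868.0, and 903.8 CPM with Arg, so that Arg replicate A and control replicate B met. RPS3 had 2790, 2421, and 2734 CPM in the controls and 2383, 2132, and 2304 CPM with Arg. RPSA had 1380, 1303, and 1404 CPM in the controls and 1301, 1090, and 1207 CPM with Arg, which left a gap of only a few CPM between the groups.
RPS27A, RPS27L, RPS23, and RPS10 overlapped between the groups at 24 h. RPS27A had 1003, 803.4, and 943.9 CPM in the controls and 909.9, 753.5, and 783.6 CPM with Arg, and RPS27L had 28.8, 22.6, and 28.4 CPM and 23.7, 16.9, and 24.4 CPM. RPS23 had 415.6, 368.9, and 398.2 CPM in the controls and 365.9, 400.0, and 402.5 CPM with Arg. RPS10 had 2.1, 1.9, and 2.7 CPM in the controls and 3.7, 2.1, and 1.5 CPM with Arg. In RPS23, Arg replicate A was the lowest of the 6 libraries, whereas in RPS10 it was the highest.
The number of members lower at an adjusted p depended on single libraries at 24 h. It was 19 without control replicate B and 13 without Arg replicate A, and it was 0 without control replicate A, control replicate C, Arg replicate B, or Arg replicate C. The genes of the whole table that were lower moved as well, from 549 to 882 and 639 in the first pair of fits and to between 233 and 286 in the fits that gave 0. Without Arg replicate A, the log2 fold changes were −0.98 for RPS15A, −0.83 for RPS29, −0.63 for RPS21, and −0.47 for RPS27, with adjusted p-values between 0.000100 and 0.00446 in edgeR's test. The share of counts from the mitochondrial genome was 1.20 to 1.30% in the 24 h controls and 0.624 to 0.802% in the 24 h Arg libraries, and the part of this difference in the result was not tested.

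After 48 h, the members were again lower with Arg, by about as much, and 4 of them passed the adjusted threshold. The log2 fold change was below 0 in 30 of 32 members, with a median of −0.22 against 0.0018 over the 14562 genes tested, of which 49.7% were below 0. At an unadjusted p under 0.05, 26 members were lower and 0 were higher in edgeR's test, against 7.49% and 5.94% of all tested genes. After adjustment over all genes, RPS15A, RPS29, RPS21, and RPS27 fell. They were 4 of the 17 genes that fell in the whole table (0.117%). No member rose at an adjusted p (0 with edgeR and 0 with DESeq2). In the whole table, 0 genes rose with edgeR and 41 with DESeq2. In 25 members each Arg library lay below each control library (8.51% of tested genes), and in 1, RPS23, each lay above (8.56%).
RPS15A had 164.7, 152.0, and 158.8 CPM in control replicates A, B, and C and 89.2, 89.9, and 90.6 CPM with Arg, which is −0.82 on the log2 scale (SE 0.0632, adjusted p = 0.000174 in edgeR's test). RPS29 had 227.9, 209.2, and 215.9 CPM in the controls and 128.0, 130.9, and 109.3 CPM with Arg (log2 fold change −0.83, SE 0.0778, adjusted p = 0.000507 in edgeR's test). The Arg and control libraries of both genes were clearly apart, and replicates within a group were close together.
RPS21 had 529.9, 485.4, and 478.4 CPM in the controls and 350.6, 356.1, and 294.6 CPM with Arg (log2 fold change −0.58, SE 0.0791, adjusted p = 0.0150 in edgeR's test). RPS27 had 687.6, 637.5, and 595.1 CPM in the controls and 484.7, 455.9, and 436.0 CPM with Arg (log2 fold change −0.48, SE 0.0694, adjusted p = 0.0206 in edgeR's test). These genes too were lower in all Arg libraries than in any control.
RPS27L, a paralog of RPS27 and a target of p53, stood at a far lower level, with 29.1, 30.4, and 28.9 CPM in the controls and 22.9, 22.1, and 19.5 CPM with Arg. Its log2 fold change of −0.45 (SE 0.101, adjusted p = 0.133 in edgeR's test) was near that of RPS27 but did not pass. RPS27A, which encodes a small subunit protein fused to ubiquitin, had 850.2, 829.4, and 870.1 CPM in the controls and 714.0, 693.5, and 656.0 CPM with Arg (log2 fold change −0.31, adjusted p = 0.0784 in edgeR's test). RPS15 and RPS19, both proteins of the head, had log2 fold changes of −0.28, each with an adjusted p of 0.133 in edgeR's test. With DESeq2 the adjusted p-values were 0.00121 for RPS27A, 0.00838 for RPS15, 0.0115 for RPS19, and 0.0195 for RPS27L. RPS6, RPSA, and RPS3 had log2 fold changes of −0.19, −0.23, and −0.19, each with an adjusted p above 0.05 (0.297, 0.176, and 0.205).
These head proteins separated cleanly. RPS15 had 555.2, 509.7, and 509.8 CPM in the 48 h controls and 443.5, 434.0, and 422.4 CPM with Arg. RPS19 had 540.4, 539.0, and 537.4 CPM in the controls and 461.2, 461.4, and 413.9 CPM with Arg. Both genes were lower in every Arg library than in any control, and RPS19, mutated in many patients with Diamond–Blackfan anemia, was almost the same in the 3 controls.
The groups of RPS6, RPSA, and RPS3 were apart at 48 h as well, by a smaller gap. RPS6 had 988.6, 916.5, and 882.5 CPM in the controls and 865.2, 851.6, and 727.9 CPM with Arg. RPSA had 1276, 1130, and 1206 CPM in the controls and 1076, 1032, and 975.6 CPM with Arg. RPS3 had 2403, 2193, and 2337 CPM in the controls and 2114, 2049, and 1904 CPM with Arg. In all of them the lowest library was Arg replicate C.

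**Figure D2:**
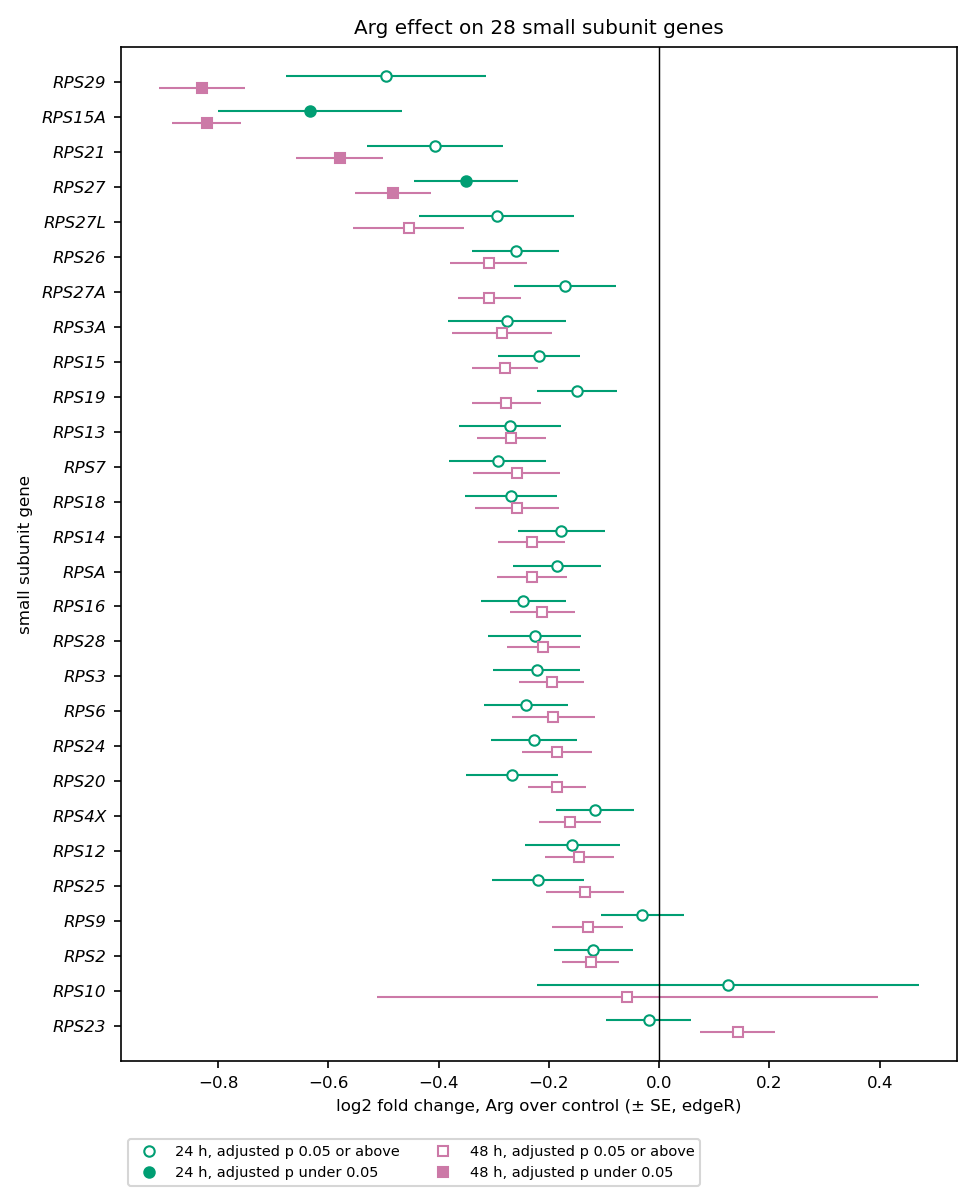
Log2 fold change of Arg over control with its standard error from edgeR (x axis) for 28 of the small subunit genes (y axis, ordered by the value at 48 h), at 24 h (green circles) and 48 h (pink squares). Filled symbols passed an adjusted p of 0.05, which are RPS15A and RPS27 at 24 h and RPS15A, RPS29, RPS21, and RPS27 at 48 h, and 27 of the 28 values lie below 0 at each time.

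At 48 h, a few members went against the rest or were at an unadjusted p of 0.05 or above in edgeR's test. RPS23 (chromosome 5, 82273358 to 82278577), a protein of the decoding center, had 366.4, 385.6, and 332.6 CPM in the 48 h controls and 386.2, 416.6, and 397.0 CPM with Arg. The lowest Arg library was just above the highest control, and the log2 fold change of 0.14 (SE 0.0677, adjusted p = 0.386 in edgeR's test) did not pass. RPS10 had 0.8 to 2.3 CPM in the 6 libraries of 48 h, too few for a fold change of any precision (−0.06, SE 0.454). RPS9 (−0.13) and RPS25 (−0.13) were also at an unadjusted p of 0.05 or above.
Without control replicate B at 48 h, 26 members were lower and RPS23 was higher (0.19, adjusted p = 0.0252) after adjustment in edgeR's test, while 1213 genes of the whole table were lower and 1152 were higher. The number of lower members was 4 without control replicate C and 2 without control replicate A or without any 1 of the Arg libraries. RPS15A and RPS29 passed in all 6 of these fits, and RPS21 and RPS27 in 2 of them, those without control replicate B or C. The share of counts from the mitochondrial genome was 1.55% in control replicate B and 0.906 and 0.707% in A and C, and the part of this in the result was not tested.

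**Figure D3:**
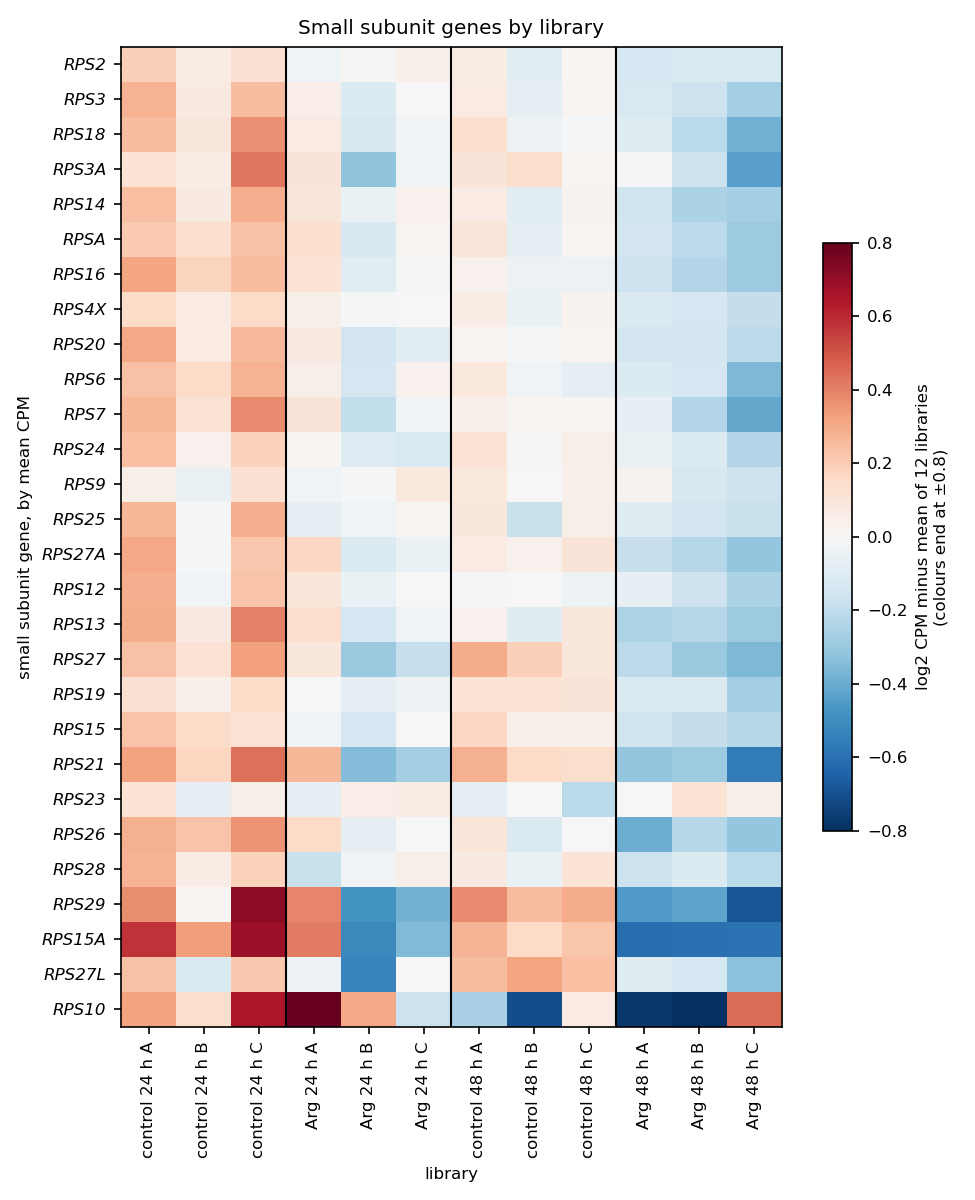
Log2 CPM of 28 of the small subunit genes (y axis, ordered by mean CPM) minus its mean over the 12 libraries (colour), in each library (x axis, black lines separate the groups). Red is above and blue below the mean, and colours end at ±0.8. Nearly all genes are red in 24 h control replicates A and C and blue in the 48 h Arg libraries, while RPS23 does not follow. In 24 h control replicate B several genes are blue, among them RPS9, RPS12, and RPS27A.

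Set against the mean of the controls, the median log2 ratio of the 32 members was −0.13 in Arg replicate A at 24 h, −0.30 in B, and −0.19 in C. At 48 h it was −0.15, −0.22, and −0.29. Between 29 and 31 members were below 0 in each of the 6 Arg libraries. The members also moved together between control libraries, so this count does not by itself separate Arg from differences between single libraries. At 24 h, the summed level of the members was 27827 CPM in control replicate B and 27665.5 CPM in Arg replicate A. The summed level of the members was 30145 ± 2030 CPM in the 24 h control and 26182 ± 1534 CPM with Arg, which is 13.1% lower. At 48 h it was 27112 ± 1013 CPM in the control and 23385 ± 1176 CPM with Arg, which is 13.7% lower (SD, n = 3 libraries each).

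At both times, 20 members were lower at an unadjusted p under 0.05 in edgeR's test (3.92% of the 13996 genes tested at both), and 29 had a log2 fold change below 0 (33.5%). The 24 and 48 h comparisons share no library. The Arg effect at 48 h was deeper than at 24 h in 18 members and less deep in 14. In a model of all 12 libraries, 0 members had a difference between the times after adjustment in edgeR's test of the interaction (0.0132% of 15148 genes), 0 at an unadjusted p under 0.05 (6.87%), and 0 with DESeq2 at either. The members with the smallest p were RPS23 (0.16 higher on the log2 scale at 48 h, SE 0.102, adjusted p = 0.810), RPS19 (−0.13, SE 0.0899, adjusted p = 0.845), and RPS29 (−0.33, SE 0.242, adjusted p = 0.849 in edgeR's test). The difference for RPS15A was −0.19 (SE 0.218). Without Arg replicate A at 24 h, it was −0.0068 for RPS29 (SE 0.180) and 0.15 for RPS15A (SE 0.123).

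The members were also lower at 48 h than at 24 h in both treatments. In untreated cells, 29 members had a log2 fold change below 0 (median −0.13, against 0.012 over all genes), and 6 fell after adjustment in edgeR's test, where 10% of all tested genes were lower. Among these were RPS15A (−0.32), RPS26 (−0.29), RPS16 (−0.27), RPS6 (−0.23), and RPS7 (−0.23). In Arg-treated cells, 31 were below 0 (median −0.17, against 0.0009), and 11 fell (14.0% of all tested genes). Among these were RPS15A (−0.51), RPS29 (−0.41), RPS26 (−0.34), RPS14 and RPS13 (both −0.25), RPS27A (−0.24), RPS16 (−0.23), RPSA (−0.22), and RPS18 (−0.20). No member rose with time in either treatment (0 at an adjusted and 0 at an unadjusted p, and 0 with DESeq2). Over the whole table, 1431 of 14449 genes rose without Arg and 2060 of 14398 with Arg at an adjusted p in edgeR's test. At an unadjusted p, 2470 and 2776 rose, and with DESeq2 1497 and 2026 rose at an adjusted p.
RPS26 (chromosome 12, 56041351 to 56044697) had 414.4, 398.7, and 436.7 CPM in the 24 h controls and 364.6, 314.9, and 341.8 CPM in those of 48 h. With Arg it had 379.5, 325.1, and 339.7 CPM at 24 h and 259.0, 291.4, and 275.6 CPM at 48 h. Its groups did not overlap in any of the 4 comparisons, it was higher in the 24 h control than in any other group, and its adjusted p-values for time were 0.0206 without and 0.00141 with Arg in edgeR's test. For RPS16, at 1263, 1145, and 1203 CPM in the 24 h controls and 1038, 979.3, and 981.2 CPM in those of 48 h, the groups were also apart in both time comparisons and both Arg comparisons, with 1094, 951.4, and 1003 CPM with Arg at 24 h and 904.9, 862.2, and 826.9 CPM at 48 h. RPS14 and RPS13, proteins of the platform and body that passed in the Arg-treated cells, separated there by time. RPS14 had 1338, 1208, and 1280 CPM with Arg at 24 h and 1122, 1052, and 1039 CPM at 48 h. RPS13 had 651.8, 537.2, and 581.3 CPM at 24 h and 500.2, 505.3, and 484.6 CPM at 48 h.

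**Figure D4:**
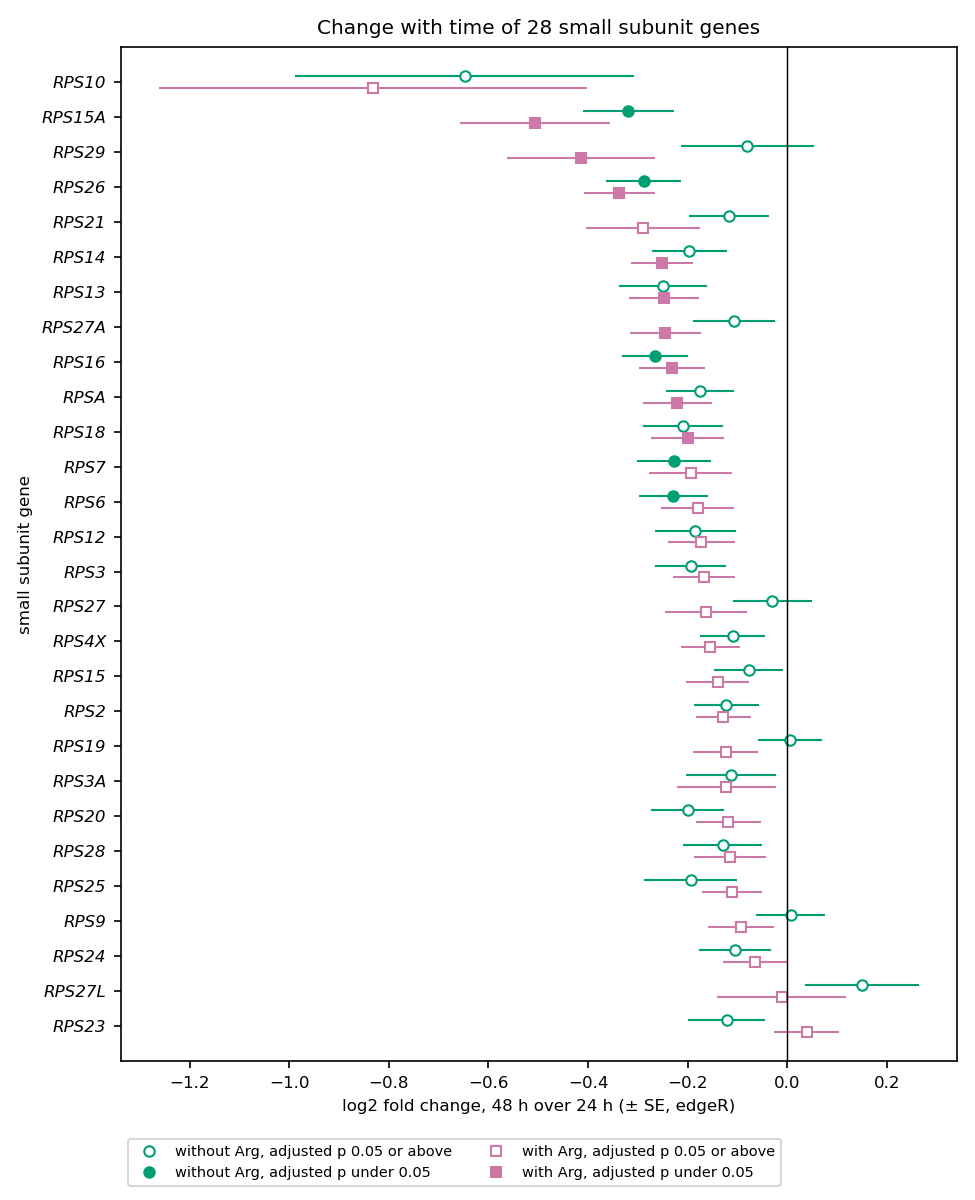
Log2 fold change of 48 h over 24 h with its standard error from edgeR (x axis) for 28 of the small subunit genes (y axis, ordered by the value with Arg), without Arg (green circles) and with Arg (pink squares). Filled symbols passed an adjusted p of 0.05, 5 without and 9 with Arg, and RPS15A, RPS16, and RPS26 are filled in both.

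The fall of RPS15A with time in Arg-treated cells depended on Arg replicate A at 24 h, without which its value was −0.17 (adjusted p = 0.0924 in edgeR's test), and with DESeq2 its adjusted p was 0.226 with all libraries. The value of RPS29 was −0.09 without that library (adjusted p = 0.438 in edgeR's test), and its adjusted p with DESeq2 was 0.336 with all libraries. Without Arg, the number of members that fell with time was 15 without control replicate B of 24 h, 1 without control replicate A or C of 24 h or without control replicate C of 48 h, and 4 without control replicate A or B of 48 h. With Arg it was 17 without replicate B of 24 h and 5 without replicate B or C of 48 h. Over the whole table, the genes that were lower went from 1451 to between 406 and 1719 without Arg and from 2012 to between 1378 and 1915 with Arg when 1 library was left out. When libraries were scaled by library size alone, the median of all genes moved by about 0.06 and the members that fell with time were 3 without and 5 with Arg, and the genes of the whole table that were lower and higher without Arg went from 1451 and 1431 to 1008 and 1845. The summed level of the 6 fibroblast markers moved with time as well, from 29.6 to 53.4 CPM in the libraries of 24 h to 71.9 to 102 CPM in those of 48 h, mostly through DCN. COL1A2, COL3A1, and PDGFRA stayed at or below 0.269 CPM and LUM at or below 2.35 CPM, while DCN and COL1A1 were present in all libraries, and the part of this difference in the result was not tested.

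The members were then described by where their protein sits and by properties of their mRNA. The 14 proteins of the head had a median log2 fold change with Arg of −0.22 at 24 h and −0.21 at 48 h, and the 18 of the body and platform had −0.24 and −0.23. Members that fell came from both sites, with RPS29 in the head and RPS15A, RPS21, and RPS27 in the body. Members with a TOP tract at a RefSeq start had a median of −0.22 at both times (18 genes, from −0.41 to 0.13 at 24 h and from −0.58 to 0.14 at 48 h). Those whose starts had none had −0.26 and −0.28 (7 genes, from −0.83 to −0.16 at 48 h), and those without an entry −0.19 and −0.18 (7 genes). A tract was found in RPS21 and RPS27, which fell at 48 h, and in RPS23, which did not. Whether the tract bears on the fall was not tested. Beyond the ribosomal protein genes of both subunits, 699 and 707 tested genes had a tract, with medians of −0.0053 at 24 h and −0.010 at 48 h.
Across the 32 members, the log2 fold change with Arg had a Spearman's rho of 0.42 at 24 h and 0.36 at 48 h with the length of the protein, so that shorter proteins tended to be lower, as a description across genes that share libraries. Protein length ran from 56 codons in RPS29 to 295 in RPSA, and RPS21 (83), RPS27 (84), and RPS27L (84) were also among the short ones, while RPS15A had 130. RPS28, with 69 codons, had −0.23 and −0.21. The rho with transcript length was 0.19 and 0.018, and over all tested genes it was 0.049 and 0.18. RPS29, RPS27, and RPS21 nevertheless had the shortest canonical transcripts of the members (295, 352, and 358 bases). RPS15A (2203 bases) and RPS27L (6110 bases) had long ones. The share of arginine codons, from 3.79% in RPS12 to 15.9% in RPS28, had a rho of 0.10 and 0.14, and the level per kilobase −0.17 and 0.14.

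The other genes of the pathway showed how far the pattern extended. Neither FAU (−0.065 at 24 h and −0.069 at 48 h) nor RACK1 (−0.16 and −0.12) passed with Arg at either time (adjusted p 0.229 to 0.686 in edgeR's test). Of the 51 large subunit genes tested (of 52), 48 were below 0 at 24 h and 45 at 48 h, with medians of −0.15 and −0.16. At an adjusted p, 3 of them fell at 24 h, RPL22L1 (−0.55), RPL9 (−0.36), and RPL37A (−0.36), and 1 fell at 48 h, RPL37A (−0.51, adjusted p = 0.0206 in edgeR's test). Thus 2 of 32 small and 3 of 51 large subunit genes fell at 24 h and 4 and 1 at 48 h, a contrast that was not tested. Of all tested genes, 3.84% were lower at an adjusted p at 24 h and 0.117% at 48 h. The 29 genes of the mitochondrial small subunit had medians of −0.10 and −0.08, with 23 below 0 at each time, and MRPS6 alone passed, at 24 h (−0.49, adjusted p = 0.0130 in edgeR's test).
The 55 small subunit assembly factors did not share the shift with Arg. Their medians were 0.047 at 24 h and 0.059 at 48 h, with 34 and 38 above 0. FCF1 (0.34, adjusted p = 0.0249 in edgeR's test) and MPHOSPH10 (0.35, adjusted p = 0.0469), both parts of the machinery that processes the pre-rRNA, rose at 24 h. At 48 h, 0 passed in either direction (10 higher and 0 lower at an unadjusted p). Over all tested genes, 398 of 14279 rose at 24 h at an adjusted p, and 0 of 14562 rose and 17 fell at 48 h. At an unadjusted p at 48 h, 5.94% of all tested genes were higher and 7.49% were lower. With time, 27 of the 55 fell without Arg and 31 fell with Arg (1 rose), against 10% and 14.0% of all tested genes that were lower. The medians of the factors were −0.28 and −0.26. NOL6, the factor with the smallest p, had −0.68 in both.
Other mRNAs known to carry a TOP motif were mixed. Of 15 listed, 13 were tested, since EEF1G and VIM did not pass the filter, and their medians were −0.015 and −0.045. NAP1L1, a nucleosome assembly protein, fell at 24 h (−0.40, adjusted p = 0.00377 in edgeR's test), and TPT1 had −0.31 and −0.28 without passing (adjusted p = 0.0987 and 0.145). The 19 initiation factors that bind the small subunit had medians of 0.043 and −0.028. EIF3C (0.54, adjusted p = 0.00481) and EIF5 (0.39, adjusted p = 0.00981 in edgeR's test) rose at 24 h, and 0 passed at 48 h (2 higher and 0 lower at an unadjusted p). The counts and shares over all tested genes for Arg are those given for the assembly factors. At an unadjusted p at 24 h, 10.8% of all tested genes were higher and 11.9% were lower. None of the 13 regulators of TOP mRNAs, among them LARP1, MTOR, and RPS6KB1, passed with Arg at either time (0 in edgeR's test, with 2 higher and 1 lower at 24 h and 2 higher at 48 h at an unadjusted p), and their medians were 0.067 and 0.044.

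**Figure D5:**
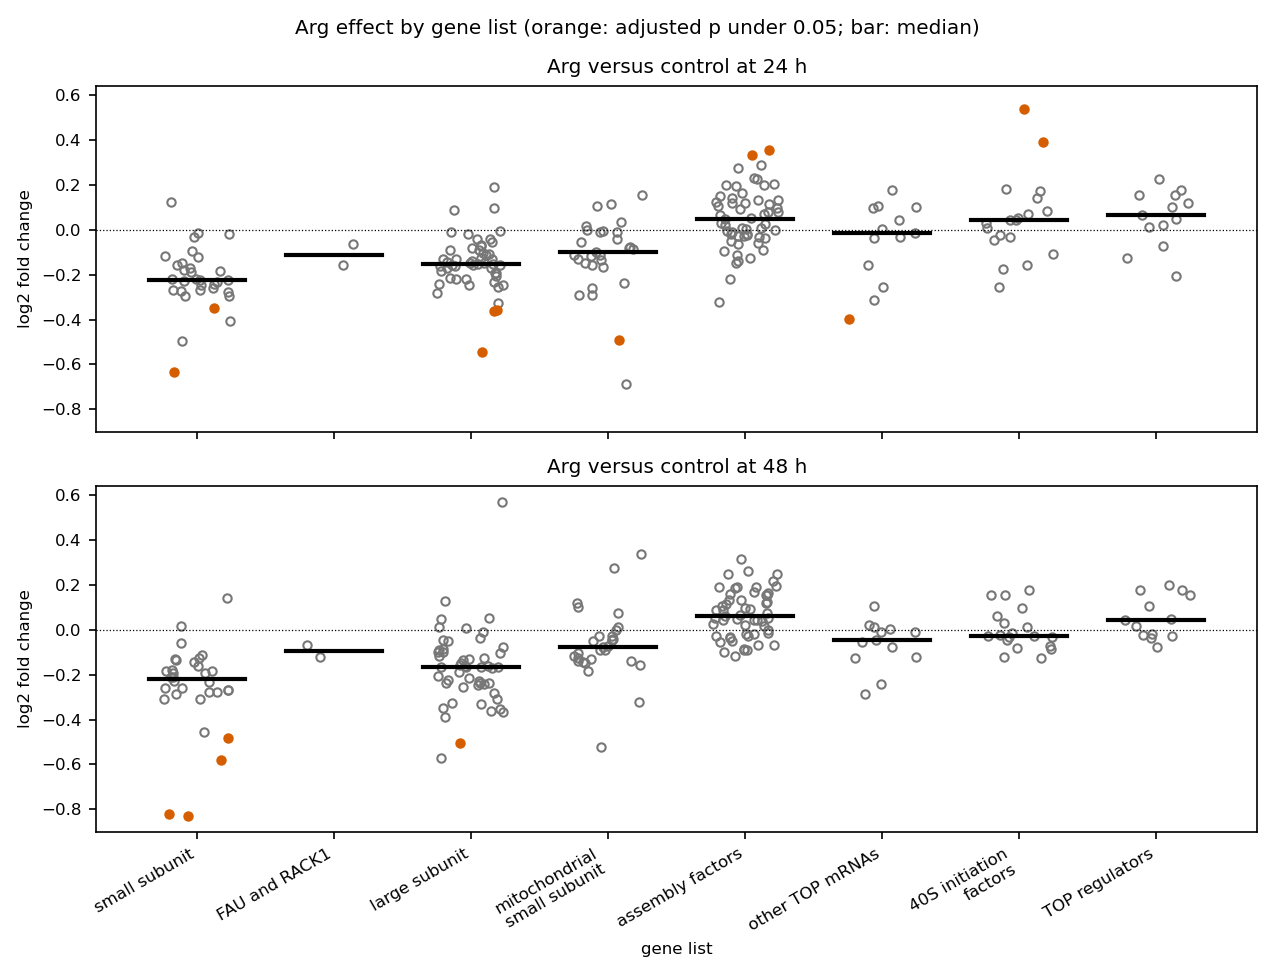
Log2 fold change of Arg over control (y axis) of the tested genes of each list (x axis) at 24 h (top) and 48 h (bottom). Each circle is a gene, orange marks an adjusted p under 0.05, and the bar is the median, which lies at −0.22 for the small subunit, at −0.15 and −0.16 for the large subunit, and above 0 for the assembly factors and the TOP regulators at both times.

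Some members are uncertain because other genes can take their reads. The table held 411 pseudogene rows named after members, with 2.59% of the counts of members and pseudogenes together. This share was 17.1% for RPS2, 50.9% for RPS10, and 8.60% for RPS28, and it was 0.153% for RPS15A, 0.127% for RPS29, 0.0243% for RPS27, and 0% for RPS21. How reads that match several places were counted is not given in the sources used here. RPS29 overlaps LRR1 on the opposite strand (15.1% of the counts of RPS29), RPS27L overlaps LACTB on the opposite strand (61.3%), and RPS13 overlaps PIK3C2A on the same strand (12.3%). RPS10 overlaps RPS10-NUDT3 on the same strand, whose counts were 0.752% of those of RPS10. Whether the counting used the strand of the reads, and how it treated reads within both of 2 overlapping genes, is not given in the sources used here. When the pseudogene counts were added to their members, 2 members at 24 h and 4 at 48 h were still lower at an adjusted p.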

How the data were processed

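Poly(A) RNA of TIGK cells was sequenced from 12 libraries. The authors trimmed the reads with fastp, mapped them to GRCh38 with STAR, and counted reads per gene with featureCounts, as the submitters' processing notes and the study's methods say, and the deposited count table holds these whole-number counts without normalization. The annotation release and the strand setting are not given in the sources used here.

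Groups were taken from the labels. Each pair of groups was fitted on its own with edgeR 4.0.16 in R 4.3.3 (filterByExpr, TMM, quasi-likelihood F-test, two-sided) on the counts as deposited, with Benjamini–Hochberg adjustment over all genes tested and a threshold of 0.05. The change of the Arg effect with time was tested as the interaction of Arg and time over the 12 libraries. CPM values were scaled by TMM over the 12 libraries. Levels per kilobase used the length of the Ensembl canonical transcript of GENCODE release 44 in place of the exonic length planned. With 16542243 to 19040964 counts per library, RPS10 alone among the members had few counts (399 in all), and the spread between libraries limited the precision.

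Alternatives were DESeq2 1.42.0, other scalings and filters, corrections for length and GC content (lowess, span 0.3; those by transcript were chosen after seeing the data), a replicate block, added pseudogene counts, and each library left out in turn. The scripts were tested on simulated counts. The members, lists, and tests were chosen with earlier results of these data known, and the grouping by head and body after the values were seen. Values in each library are given for the 8 members with the smallest p for Arg at each time, the 2 with the highest log2 fold change at each time, the 3 with the smallest interaction p, the 4 with the smallest p for each time comparison, and RPS27L, RPS27A, RPS6, RPSA, and RPS3. In the comparisons that did not name them, they are in the plot of all libraries. At most 3 genes with the smallest p at each time were named from each other list. The text also names members by their place in a count. Some members enter the counts, medians, and sums but are not reported here by name or drawn by name.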

Additional observations from a re-analysis of the deposited data

How the results depend on the processing

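The numbers of members lower at an adjusted p depended on the processing, and the cause was not tested. The median log2 fold changes moved as well. With the transcript length correction, they went from −0.22 to −0.18 for Arg at 48 h and from −0.17 to −0.12 for time with Arg. With library size only, the median for time without Arg went from −0.13 to −0.068. For Arg at 24 h it ran from −0.28 to −0.18 with 1 library left out. For Arg at 24 h (2 members), the number was 8 with DESeq2, 4 with library size only, 14 with no filter, 7 with all 12 libraries in 1 model, 13 with the transcript length correction, 8 with the transcript GC correction, and 0 to 19 when 1 library was left out. For Arg at 48 h (4 members), it was 11 with DESeq2, 18 with no filter, and 2 to 26 with 1 library left out, and the number of higher members was then 0 to 1. For time without Arg (6 members), it was 3 with library size only, 11 with no filter, and 1 to 15 with 1 library left out. For time with Arg (11 members), it was 5 with library size only, 4 with the transcript length correction, 20 with the transcript GC correction, and 5 to 17 with 1 library left out. Whether the replicate letters pair the libraries was not settled. The correlations of same-letter deviations lay between −0.061 and 0.135, which shows no strong shared deviation but not that the libraries are unpaired. With the letter as a replicate block, 9 members were lower at 24 h and 7 at 48 h with Arg, and 13 without and 12 with Arg fell with time. The block together with the exonic length correction gave 5 at 24 h and 14 for time without Arg. Together with the transcript length correction it gave 14 at 24 h, 13 for time without Arg, and 4 for time with Arg, and with the transcript GC correction 12, 19, and 18.

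Some values of single genes changed sign. RPS10 ran from −0.30 to 0.38 at 24 h and from −0.66 to 0.22 at 48 h with 1 library left out, and was 0.0032 at 48 h with the exonic length correction. RPS23 ran from −0.068 to 0.020 at 24 h with 1 library left out. The difference of the Arg effect between the times ran from −0.36 to 0.15 for RPS15A and from −0.28 to 0.046 for RPS21, and the change of RPS29 with time without Arg from −0.24 to 0.10, in the same way. In all, 43 values of counts and medians moved and 261 kept their size. Of the values for single genes, 880 kept their direction and call and 7 reversed direction, while 124 passed only under the alternative and 33 no longer passed. With 3 libraries per group, a single library decided many calls.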
